A study of Drosophila melanogaster with 30 samples.

Results

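The response of the male Drosophila melanogaster brain to social isolation was compared between wild-type flies and doublesex (dsx) mutants, as a difference of 2 differences in expression. The change from group housing (GH) to single housing (SH) in Canton-S (CS) males was subtracted from the same change in dsx males, so a negative value means that isolation raised a gene less, or lowered it more, in dsx. The comparison used 12 of the 30 libraries of the study, 3 for each combination of genotype and housing, and each library was made from polyadenylated RNA of a pool of 30 dissected male brains. The CS males carry the genotype label Canton-S, a standard wild-type strain, and the mutant males carry the label w-/Y; +/+; dsxf00683-d07058/f01649-d09625, which combines 2 different dsx chromosomes. The dsx males were thus also mutant for white (w), the eye colour gene, and no w mutant with an intact dsx was among the 12 libraries, so an effect of dsx and one of the strain background cannot be told apart. The age of the males and the length of isolation are not given in the sources used here.

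dsx encodes a zinc-finger transcription factor at the end of the sex determination pathway, and sex-specific splicing gives a male and a female protein. In the brain it is made in a small share of neurons, many of which also make the male forms of fruitless, and these circuits are known for their part in courtship and aggression. Isolation is known to change aggression, sleep and feeding in flies, behaviours that are under the control of neuropeptides and biogenic amines.

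Total estimated counts ran from 40.3 to 121 M per library (median 49.1 M), and the deepest library was the first dsx GH replicate. Levels are given as CPM, the gene count per M of TMM-scaled gene counts, and changes as log2 fold changes with their standard error from edgeR. A floor of 3 counts in a library equalled 0.0282 to 0.075 CPM, which covers counting error only. The dsx transcript stood at 13.3, 12.8 and 14.4 CPM in grouped CS, 20.6, 20.3 and 15.4 in isolated CS, 9.26, 9.23 and 9.72 in grouped dsx, and 10.2, 9.87 and 8.35 in isolated dsx. All 6 dsx libraries were below all 6 CS libraries, and the w transcript was at 0.163 to 0.478 CPM in dsx against 9.24 to 16.9 in CS, in the direction of the labels. The deleted part of dsx was not read separately, dsx overlaps lds and w overlaps kirre.

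Several measures of sample makeup differed between these libraries. A deposited table assigns CS GH replicate 3 and CS SH replicate 2 to a dissection batch named AC, with no key, and every dsx library to notAC. Summed over 12 photoreceptor markers, such as the rhodopsin ninaE, the level was 1127 to 1755 CPM in grouped CS, 1001 to 2908 in isolated CS, 1051 to 1286 in grouped dsx and 1140 to 1288 in isolated dsx. Summed over 6 neuron markers it was 6729 to 7686, 5081 to 6943, 8748 to 9003 and 9006 to 9373 CPM in the same order. Mitochondrially encoded genes took 4.42% to 10.3% of gene counts in grouped CS, 2.99% to 4.56% in isolated CS, 12.4% to 13.2% in grouped dsx and 12.9% to 14.1% in isolated dsx. In bulk tissue fewer cells of a type and less RNA per cell cannot be told apart.

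**Figure D1:**
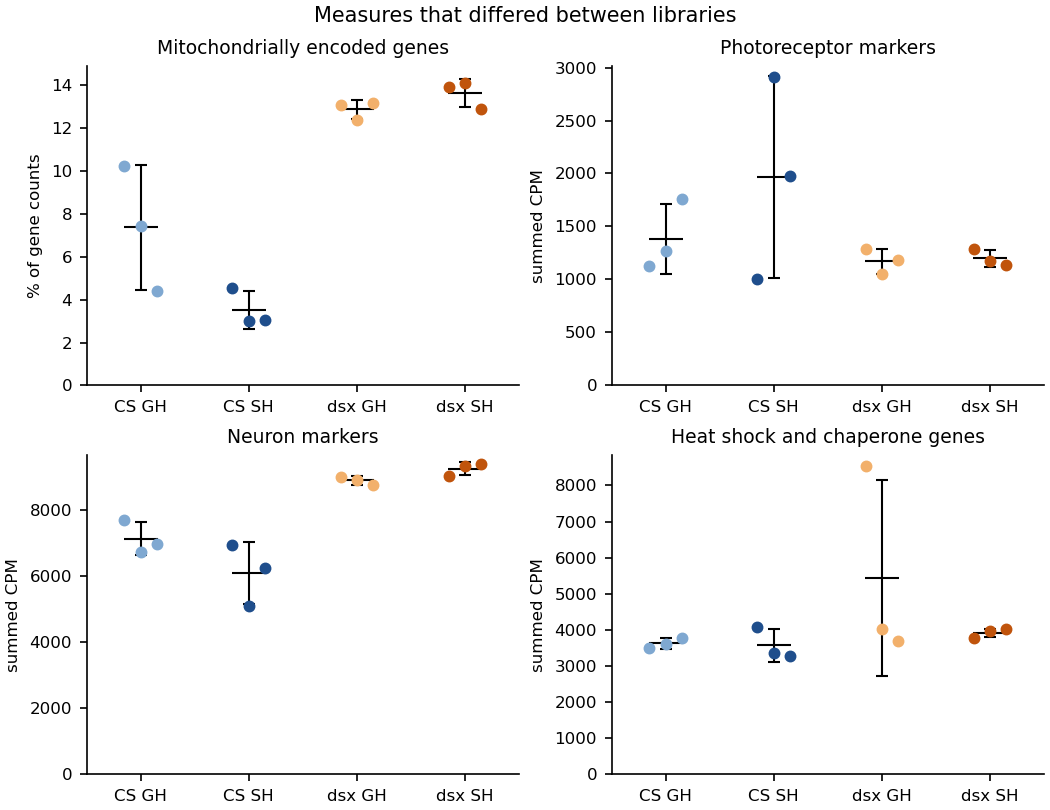
Share of gene counts from mitochondrially encoded genes (%) and summed CPM of photoreceptor markers, neuron markers and heat shock genes, by group; points are libraries, the bar is the mean and the whiskers are 1 SD (n = 3). Photoreceptor markers reach 2908 CPM in a CS SH library and chaperone genes 8552 CPM in a dsx GH library, and all dsx libraries lie above all CS libraries for the mitochondrial share and the neuron markers.

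Isolation changed far fewer genes past the threshold in dsx than in CS brains. Of 11269 genes tested with edgeR, 107 were higher (0.95%) and 103 lower (0.914%) in isolated CS males at an adjusted p under 0.05, while 2 were called in dsx (0.0177%), both lower. At an unadjusted p under 0.05, 136 genes were higher (1.21%) and 246 lower (2.18%) in isolated dsx males. A call in one genotype and not in the other does not show a difference, so the difference itself was tested.

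That test called 1 gene of 11269 (0.00887%), and its median standard error of 0.182 was wider than that of either arm. At an unadjusted p under 0.05, 860 genes had a higher (7.63%) and 646 a lower difference (5.73%), and 15 genes had an adjusted p under 0.1. The count differed between methods: it was 283 with edgeR on the 12 CS and dsx libraries alone, 102 with the DESeq2 Wald test, and 12 with limma on the deposited normalized values. Each of these 3 alternatives called the genes CG10513, Acsx3, CG6126, CG6040, CG9485, PCB, FASN1, CG9896, c(3)G and brwl, all 10 of which are described below.

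The called gene was CG10513 (3R:25275790-25277212, BDGP6.54), which belongs to a Drosophila family named after the ecdysteroid kinase of the silkworm. Its level was 37.6, 39.5 and 36.5 CPM in grouped CS and 98.9, 113 and 95.1 in isolated CS. In dsx it was 54.3, 55 and 55 CPM in GH and 49.9, 56 and 46.2 in SH. Isolated CS males were thus above all other libraries, the dsx housings overlapped, and all 6 dsx libraries lay between the 2 CS housings. The change with isolation was 1.42 ± 0.13 in CS (adjusted p = 1.47e-06) and -0.11 ± 0.13 in dsx (unadjusted p = 0.389, adjusted p = 1). The difference was -1.53 ± 0.18 (95% interval -1.91 to -1.16, edgeR adjusted p = 0.000176), and the gene was called in all 24 alternatives, with differences of -1.66 to -1.40.

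CG10513 lies in a cluster of genes of the same family, and its neighbours were looked up after its value was seen. CG10514, the adjacent gene on the same strand, was at 25.9 to 33.2 CPM in grouped CS, 45.6 to 50.6 in isolated CS, 19.1 to 22.2 in grouped dsx and 19.4 to 21.1 in isolated dsx, with a difference of -0.74 ± 0.20 (edgeR adjusted p = 0.197). CG11892 stood at 16.5 to 24.9, 27.7 to 44.9, 5.45 to 6.17 and 6.12 to 6.61 CPM in the same order, with a difference of -0.65 ± 0.28 (adjusted p = 0.323). Both were higher in isolated CS males (0.69 ± 0.14, adjusted p = 0.00994, and 0.77 ± 0.19, adjusted p = 0.0395), and in both the dsx libraries were below the CS libraries in either housing. CG11889 and CG11891, which overlap each other completely so that reads cannot be assigned with certainty, had differences of -0.66 ± 0.18 and -0.66 ± 0.22. Here grouped dsx was above grouped CS, at 52 to 69.6 against 28.5 to 36.3 CPM for CG11889 and 31.6 to 46.3 against 17.5 to 20.9 for CG11891. The rise in isolated CS was called for CG11889 (0.55 ± 0.13, edgeR adjusted p = 0.0284) and not for CG11891 (0.52 ± 0.16, adjusted p = 0.0766). CG31300, also in the cluster, had a difference of -0.01 ± 0.26. Further genes of the neighbourhood were near the floor or low, and differed in sign: CG31104 and CG13658, at no more than 0.651 and 0.313 CPM, had differences of 1.90 ± 0.95 and 1.99 ± 1.32, while CG11878 and CG11893 had -0.41 ± 0.69 and -0.18 ± 0.38. None of these neighbours passed the threshold for the difference.

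**Figure D2:**
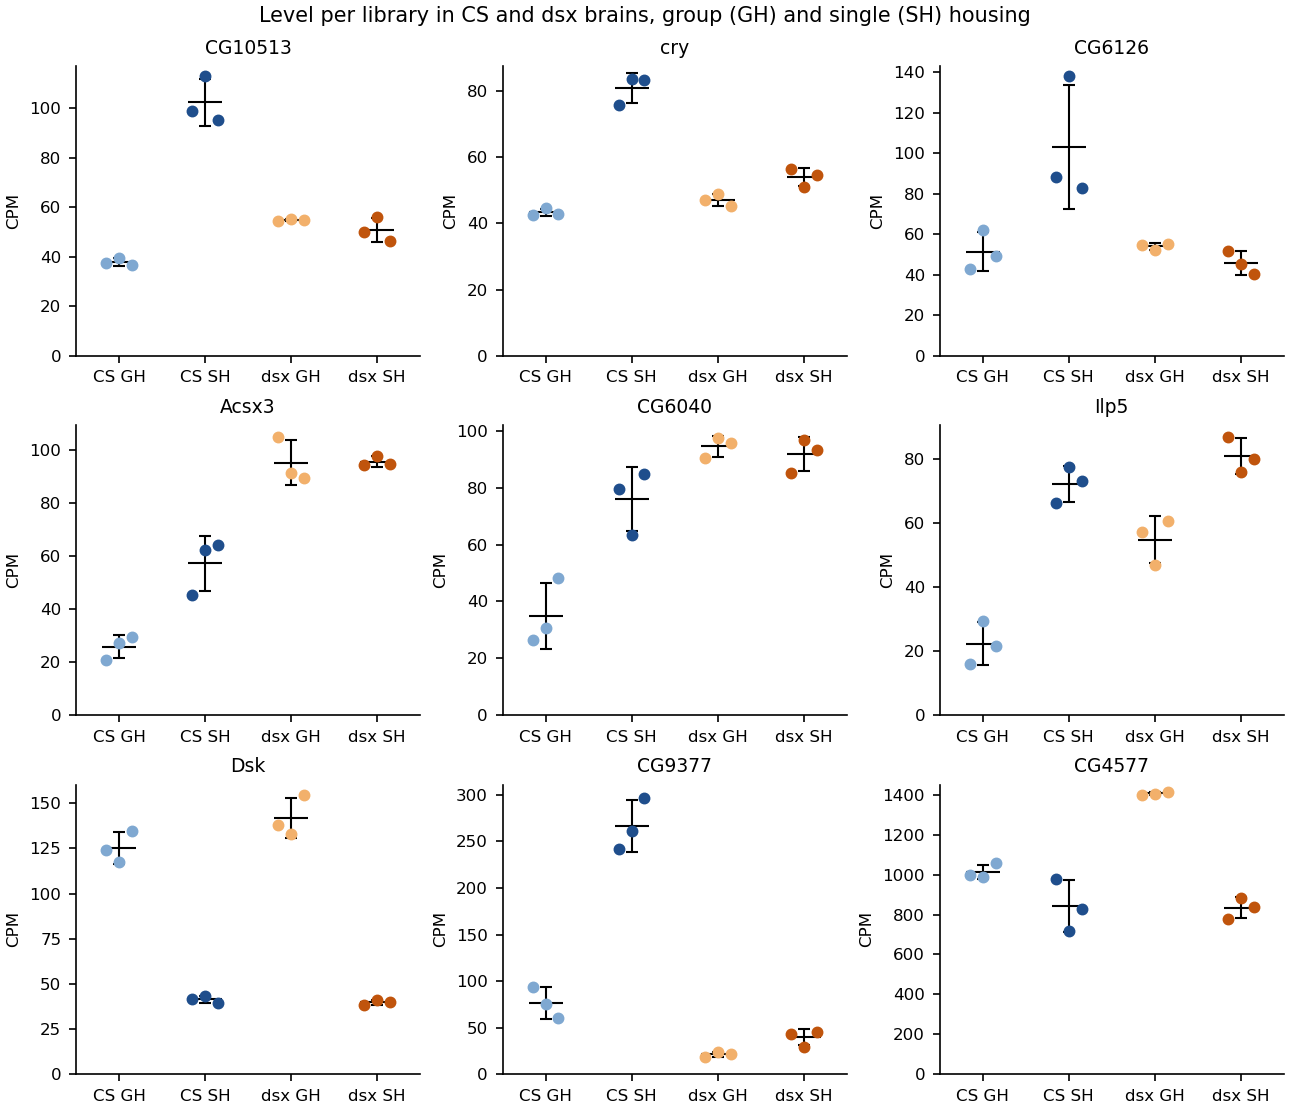
CPM of 9 genes in each library of CS and dsx, group (GH) and single (SH) housing; points are libraries, the bar is the mean and the whiskers are 1 SD (n = 3). CG10513, cry and CG6126 are highest in CS SH, Acsx3 and CG6040 are high in both dsx housings, Ilp5 and CG9377 are higher in SH in both genotypes, and Dsk and CG4577 are lower in SH in both.

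Below CG10513, the 9 genes with the smallest p for a lower difference had adjusted p values of 0.0763 to 0.109 and so did not pass the threshold. All 9 were called higher in isolated CS males, against 0.95% of all genes. None had an unadjusted p under 0.05 for housing in dsx. The ranking by the difference favours a rise in CS without one in dsx, so these counts are no further evidence. The 9 genes fell into 2 patterns by their level in dsx. In the first, both dsx housings were near grouped CS or between the CS housings. cry, which encodes the blue-light receptor that resets the circadian clock, was at 42.5, 44.6 and 42.9 CPM in grouped CS and 75.8, 83.5 and 83.4 in isolated CS, and at 47.1, 48.8 and 45.2 in grouped dsx and 56.4, 51.1 and 54.6 in isolated dsx. The dsx SH libraries were above the dsx GH libraries but below every isolated CS library, and the change was 0.90 ± 0.11 in CS and 0.20 ± 0.11 in dsx (difference -0.70 ± 0.16, edgeR adjusted p = 0.109). cry overlaps vib and a long noncoding RNA, and the strand used in counting is not stated.

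CG6126 followed the same pattern, at 43, 62.2 and 49.5 CPM in grouped CS, 88.3, 138 and 82.9 in isolated CS, 54.7, 52.2 and 55.2 in grouped dsx and 52, 45.5 and 40.3 in isolated dsx. Every isolated dsx library was below every grouped one, and the difference was -1.17 ± 0.23 (edgeR adjusted p = 0.0798). PCB, which encodes pyruvate carboxylase, had a difference of -0.68 ± 0.15, with 88.8 to 105 CPM over the 6 dsx libraries against 91.4 to 116 in grouped CS and 120 to 218 in isolated CS. c12.2 was at 20 to 23.7 CPM in dsx, 21.6 to 22.1 in grouped CS and 28.4 to 29.5 in isolated CS (-0.56 ± 0.13). CG8547 was at 19.4 to 23.7 CPM in dsx, 16.2 to 19.8 in grouped CS and 25.5 to 37.3 in isolated CS (-0.64 ± 0.13). CG9485, which encodes the glycogen debranching enzyme and overlaps CG33655, was at 63.4 to 66.7 CPM in grouped dsx and 59.5 to 59.7 in isolated dsx, between 52.9 to 58.2 in grouped CS and 70.9 to 72 in isolated CS (-0.48 ± 0.10).

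In the second pattern grouped dsx males were already at or above the level of isolated CS males. Acsx3, of the acyl-CoA synthetase family, was at 20.9, 27.1 and 29.3 CPM in grouped CS and 45.2, 62.3 and 64.3 in isolated CS, against 105, 91.3 and 89.7 in grouped dsx and 94.5, 98 and 94.7 in isolated dsx. All 6 dsx libraries exceeded all CS libraries, and the dsx housings overlapped. Its change was 1.15 ± 0.15 in CS and 0.01 ± 0.15 in dsx, and the difference of -1.15 ± 0.21 had an edgeR adjusted p of 0.0763. CG6040 was at 26.3, 30.5 and 48.1 CPM in grouped CS, 79.5, 63.4 and 84.8 in isolated CS, 90.4, 97.3 and 95.8 in grouped dsx and 85.3, 96.8 and 93.3 in isolated dsx (difference -1.15 ± 0.24). CG42390 was at 18.7 to 27.1, 27.3 to 48.1, 59.6 to 64.3 and 51.9 to 57.9 CPM in the same order (difference -0.90 ± 0.20). FASN1, which encodes fatty acid synthase and is on the fat body marker list, followed neither pattern closely and was at 311 to 419 CPM in grouped CS, 436 to 618 in isolated CS, 401 to 450 in grouped dsx and 364 to 368 in isolated dsx (difference -0.70 ± 0.17, edgeR adjusted p = 0.157).

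The 10 genes with the smallest p for a higher difference had edgeR adjusted p values of 0.0763 to 0.109. In CS all 10 had isolated libraries wholly below grouped ones, against 1182 of 11269 genes tested. Of the 10, 8 were called lower in CS, against 0.914% of all genes. The ranking favours such a fall in CS, so these counts too are no further evidence. CG9896, which overlaps twi, was at 159, 151 and 143 CPM in grouped CS, 131, 118 and 124 in isolated CS, 145, 148 and 149 in grouped dsx and 163, 163 and 156 in isolated dsx. The direction was thus opposite in the 2 genotypes with no overlap in either, though both changes were small (-0.28 ± 0.05 in CS, 0.13 ± 0.05 in dsx, difference 0.40 ± 0.08). skl, which encodes the cell death activator sickle, was at 11.9 to 13.7 CPM in grouped CS, 8.61 to 10.5 in isolated CS, 12.8 to 14.8 in grouped dsx and 16.9 to 17.8 in isolated dsx (difference 0.71 ± 0.16). c(3)G, a gene of the meiotic synaptonemal complex that overlaps Uros2, was at 8.17 to 9.67, 4.87 to 6.81, 9.44 to 11 and 10.9 to 12.2 CPM in the same order (difference 0.72 ± 0.14).

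Nubpl, whose human counterpart helps to assemble respiratory complex I, was at 114 to 126 CPM in grouped CS, 80.9 to 111 in isolated CS, 133 to 136 in grouped dsx and 149 to 161 in isolated dsx (difference 0.52 ± 0.11). brwl (0.38 ± 0.08, overlapping Mtpalpha), CG14621 (0.45 ± 0.09, overlapping CG14615) and the noncoding RNAs CR43361 (0.57 ± 0.12, within the span of unc-13) and asRNA:CR45683 (0.47 ± 0.10) had differences of similar size. Of these 8 genes, CG9896, brwl, Nubpl, CR43361 and skl had an edgeR unadjusted p under 0.05 for housing in dsx, between 0.00246 and 0.0274, with every isolated dsx library above every grouped one. The ranking also favours an increase in dsx, which had such a p in 1.21% of all genes. The remaining 2 of the 10 were the antibacterial peptide genes DptA and DptB, described with the immune genes.

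**Figure D3:**
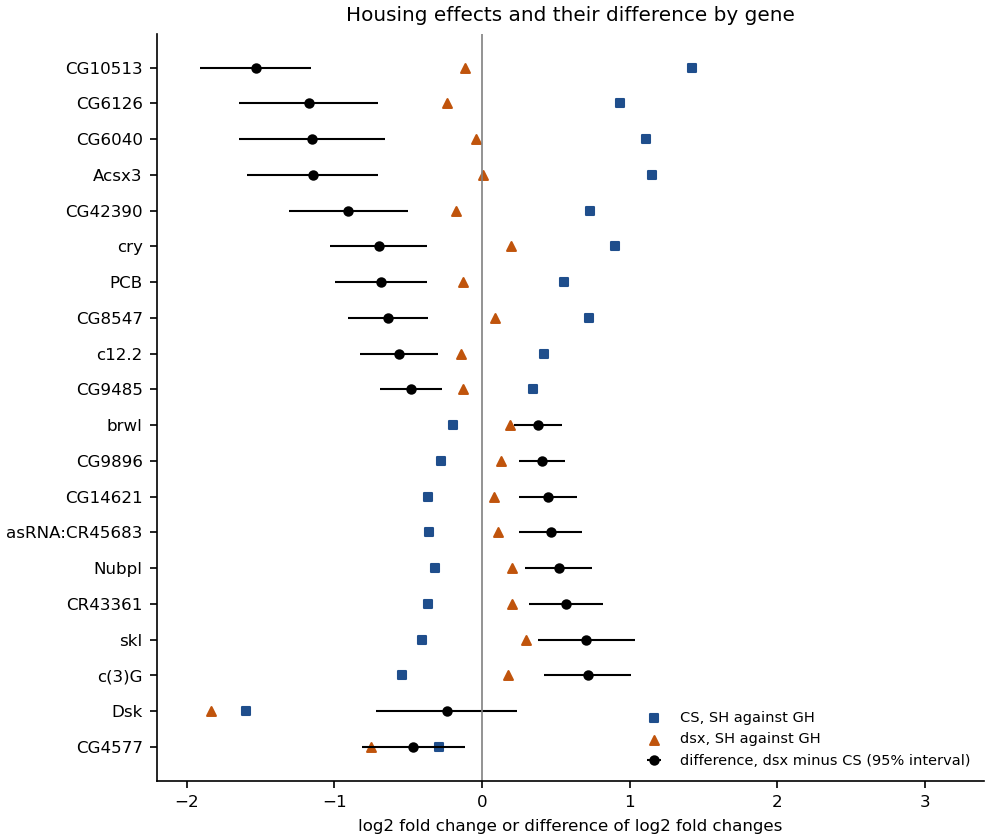
Log2 fold change of SH against GH in CS (squares) and dsx (triangles) and the difference of the 2, dsx minus CS, with its 95% interval (circles), for 18 genes with the smallest p in either direction, without DptA and DptB, and for Dsk and CG4577. The interval of CG10513 runs from -1.91 to -1.16, and that of Dsk from -0.72 to 0.24.

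The 210 genes called in CS were then read in the dsx libraries, which share no library with CS and did not choose them. Of the 107 genes higher in isolated CS, 55 (51.4%) were also higher in isolated dsx, as were 47.98% of all genes tested, and the median change was 0.59 in CS and 0.01 in dsx. In dsx 12 of the 107 had an edgeR unadjusted p under 0.05 in the same direction, against 1.21% of all genes, 0 in the opposite one and 0 were called. In 20 of the 107 all isolated dsx libraries were above all grouped ones, against 10.8% of all genes tested. Of the 103 genes lower in isolated CS, 57 (55.3%) were lower in isolated dsx, as were 51.87% of all genes, with medians of -0.64 and -0.02. In dsx 19 of the 103 had an unadjusted p under 0.05 in the same direction, against 2.18% of all genes, and 3 in the opposite one, 1 was called, and in 21 all isolated libraries were below all grouped ones, against 10.6% of all genes.

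The size of the change was kept in a minority of them. In dsx the change reached 50% of the CS size in the same direction in 5 of the 107 genes and in 16 of the 103. Group means of log2 CPM were used to place the levels. For 79 of the 107 genes both dsx housings were nearer to grouped than to isolated CS, and for 20 both were nearer to isolated CS. For 5 grouped dsx was nearer to grouped CS and isolated dsx to isolated CS. The corresponding counts for the 103 genes were 73, 16 and 12. The same placement was not counted over all genes tested, so these counts have no background share beside them. These genes were chosen for a large change in CS, which favours a smaller change in any other set of libraries, and the share with the same sign was 80.4% when the AC term was left out, which called 46 genes in CS, and 32.6% with the 12 libraries alone, which called 1066.

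**Figure D4:**
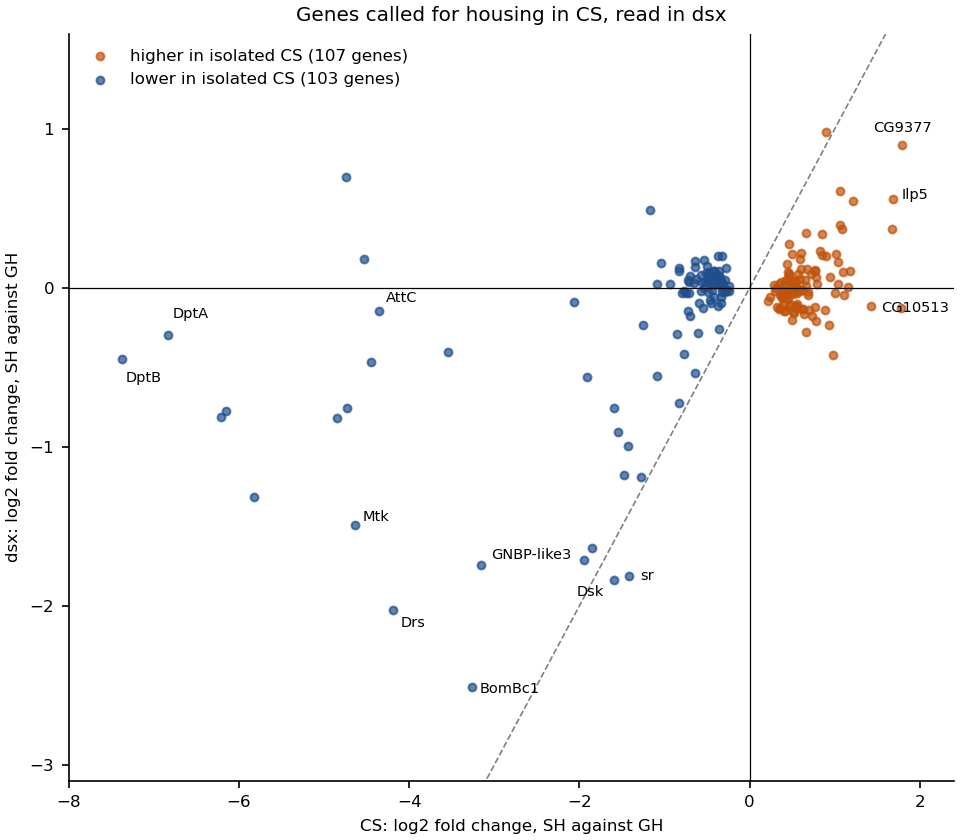
Log2 fold change of SH against GH in CS (x axis) and dsx (y axis) for the 107 genes called higher and the 103 called lower in isolated CS; the dashed line marks equal changes. Most points lie near 0 on the dsx axis, with Dsk and sr near the line and DptA, DptB and AttC far from it.

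The gene called in both genotypes was Dsk, which encodes drosulfakinin, a cholecystokinin-like neuropeptide known for roles in satiety, aggression and mating. It was at 124, 117 and 135 CPM in grouped CS, 41.5, 43.4 and 39.5 in isolated CS, 138, 133 and 155 in grouped dsx and 38.5, 41 and 39.9 in isolated dsx. Both genotypes fell with isolation to the same range, with no overlap between housings, a change of -1.60 ± 0.17 in CS (edgeR adjusted p = 1.11e-05) and -1.83 ± 0.17 in dsx (adjusted p = 1.79e-06). The difference was -0.24 ± 0.23, with a 95% interval of -0.72 to 0.24 (adjusted p = 0.708). Dsk overlaps the annotated gene CR33294.

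CG4577 was the other gene called in dsx, and CS males did not pass the threshold. It was at 997, 988 and 1056 CPM in grouped CS, 979, 719 and 829 in isolated CS, 1401, 1404 and 1416 in grouped dsx and 780, 884 and 839 in isolated dsx. Isolated libraries were below grouped ones in both genotypes, and the grouped dsx libraries were the highest of all. The change was -0.29 ± 0.12 in CS (edgeR adjusted p = 0.188) and -0.75 ± 0.12 in dsx (adjusted p = 0.0114), and the difference of -0.47 ± 0.17 did not pass the threshold (adjusted p = 0.282).

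Among genes raised by isolation in CS, CG9377 had the smallest p in dsx. It was at 94.1, 75.8 and 60.2 CPM in grouped CS and 242, 261 and 297 in isolated CS, but at 18.6, 23.4 and 21.6 in grouped dsx and 43.2, 29.6 and 45.7 in isolated dsx. Isolated dsx males were above grouped ones yet below every CS library, and the change was 1.79 ± 0.20 in CS and 0.90 ± 0.20 in dsx (edgeR unadjusted p = 0.000155, adjusted p = 0.238). Ugt35B1, a UDP-glycosyltransferase gene, was at 142 to 151 CPM in grouped CS, 248 to 367 in isolated CS, 120 to 126 in grouped dsx and 159 to 161 in isolated dsx, a change of 1.09 ± 0.12 in CS and 0.37 ± 0.12 in dsx. Bcat, which encodes the branched-chain aminotransferase, was at 5.39 to 7.45, 11 to 21.7, 10.9 to 17.5 and 19.1 to 20.8 CPM in the same order, a change of 1.21 ± 0.18 in CS and 0.55 ± 0.17 in dsx. The differences of CG9377 (-0.89 ± 0.28), Ugt35B1 (-0.72 ± 0.17) and Bcat (-0.66 ± 0.25) had edgeR adjusted p values of 0.243, 0.141 and 0.286.

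Of the 43 neuropeptide and peptide hormone genes tested, 0 were called in the difference, 7 had a lower and 3 a higher difference at an edgeR unadjusted p under 0.05, against 5.73% and 7.63% of all genes. Ilp5, an insulin-like peptide of the insulin-producing cells, was at 16, 29.2 and 21.7 CPM in grouped CS, 66.2, 77.5 and 73.3 in isolated CS, 57.1, 46.8 and 60.7 in grouped dsx and 87, 75.9 and 80.1 in isolated dsx. Isolated libraries were above grouped ones in both genotypes, and grouped dsx was already above grouped CS, and the change was 1.69 ± 0.21 in CS and 0.56 ± 0.20 in dsx (difference -1.13 ± 0.29, edgeR adjusted p = 0.157). Ilp3, another insulin-like peptide of these cells, was at 12.4 to 19.7 CPM in grouped CS, 30 to 34 in isolated CS, 70.1 to 97.7 in grouped dsx and 76.1 to 93.4 in isolated dsx, with a called rise in CS (1.00 ± 0.25, edgeR adjusted p = 0.0372) and -0.03 ± 0.24 in dsx. The dsx housings overlapped for Ilp3 at a level above every CS library. Ilp5 overlaps CG43897 and Ilp3 overlaps CG32052, so reads of either pair may be split.

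Mip, which encodes the myoinhibitory peptides, was at 53.4, 69.8 and 81.2 CPM in grouped CS, 126, 157 and 112 in isolated CS, 101, 111 and 96.7 in grouped dsx and 104, 107 and 112 in isolated dsx (difference -0.88 ± 0.20, edgeR adjusted p = 0.109). Pdf, the neuropeptide of clock neurons, was at 63.3 to 123 CPM in grouped CS and 152 to 195 in isolated CS, against 171 to 207 in grouped dsx and 146 to 153 in isolated dsx (difference -1.13 ± 0.38). Tk, which encodes tachykinin and overlaps Ect3, was at 164 to 198, 124 to 146, 124 to 135 and 129 to 134 CPM in the same order (difference 0.45 ± 0.12). The tachykinin level of both dsx housings was thus near that of isolated CS. Proc, which encodes proctolin, was at 94.3 to 127 CPM in grouped CS, 89.4 to 114.8 in isolated CS, 157 to 171 in grouped dsx and 86.7 to 95.6 in isolated dsx, so its dsx housings did not overlap (-0.81 ± 0.19, edgeR unadjusted p = 0.000329) while those of CS did. The change did not pass the threshold in dsx, and this contrast of the genotypes does not show a difference between them.

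The 35 immune effector genes tested, which encode secreted antimicrobial peptides and Bomanins, held several large differences. Of these 0 were called in the difference by edgeR, 6 by DESeq2 and 1 by limma, and 13 had a higher difference at an edgeR unadjusted p under 0.05 and 0 a lower one, against 7.63% and 5.73% of all genes. Their median change was -1.95 in CS, where 16 were called lower, and -0.82 in dsx, where 0 were called and 16 had an unadjusted p under 0.05 for a decrease (2.18% of all genes). Leaving out 1 library at a time moved the count of higher differences between 8 and 15. The count in dsx was 7 and its median -0.41 without dsx GH replicate 3, and they were 20 and -1.61 without dsx SH replicate 3. Summed over all 40 genes of the list, the level was 266 to 369 CPM in grouped CS, 78.8 to 245 in isolated CS, 149 to 374 in grouped dsx and 85.2 to 193 in isolated dsx, so the dsx housings overlapped. The highest sums were in CS SH replicate 2 and in dsx GH replicate 3 within their groups.

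The list was divided by gene family after its values were seen, so the 2 families below carry no test of their own. The first holds the Attacin, Cecropin, Diptericin and Drosocin genes, antibacterial peptides known as targets of the Imd pathway. The second holds the Bomanins, short peptides known as targets of the Toll pathway. DptA was at 18.2, 8.04 and 7.64 CPM in grouped CS and 0.0207, 0.279 and 0.0365 in isolated CS, where it rested on 1, 13 and 2 counts. In dsx it was at 2.48, 2.45 and 9.27 CPM in GH and 1.32, 0.70 and 9.45 in SH. All 3 isolated dsx libraries were above all isolated CS libraries, and the dsx housings overlapped. The fitted difference had a 95% interval of 3.81 to 9.28 (edgeR adjusted p = 0.0798), and its size depends on the prior count because isolated CS was close to the floor.

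AttC had higher counts in isolated CS. It was at 26.2, 13.6 and 24.9 CPM in grouped CS, 0.641, 2.62 and 0.475 in isolated CS, 11.1, 12.2 and 34.4 in grouped dsx and 13.3, 2.65 and 36 in isolated dsx (difference 4.21 ± 0.98, edgeR adjusted p = 0.109; AttC overlaps CG4744). Of the 10 genes of the first family tested, 10 had isolated CS libraries wholly below grouped ones, against 1182 of 11269 genes tested. In CS 6 were called lower, against 0.914% of all genes. In dsx 0 were separated in that way (10.6% of all genes), and 0 had an unadjusted p under 0.05 for a decrease (2.18%). In 8 of the 10 all isolated dsx libraries were above all isolated CS libraries. The share of all genes separated in this last way was not counted. The median change was -5.31 in CS and -0.64 in dsx. The dsx value rested on few libraries: the summed level of the family was 25.2, 25.9 and 123 CPM in grouped dsx and 28.1, 6.10 and 92.5 in isolated dsx. Without dsx GH replicate 3 the median change in dsx was 0.64, and without dsx SH replicate 3 it was -1.79, with 5 of 11 genes at an unadjusted p under 0.05 for a decrease.

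In the Bomanin genes the median change was negative in both genotypes. It was -1.41 in CS and -1.30 in dsx over 12 genes, and the median difference was 0.04, with 0 of 12 at an edgeR unadjusted p under 0.05 for the difference. In dsx 12 of 12 were negative, against 5845 of 11269 genes tested. An unadjusted p under 0.05 for a decrease was found in 11 of the 12, against 2.18% of all genes. In 11 all isolated libraries were below all grouped ones, against 10.6% of all genes, although 0 were called over all genes. Summed over the family, the level was 107, 81.4 and 91.8 CPM in grouped CS, 24.3, 75.5 and 22.3 in isolated CS, 53.7, 61.3 and 103 in grouped dsx and 32.9, 24.3 and 31 in isolated dsx. CS SH replicate 2, of the AC batch, was near the grouped level, and no other isolated library of either genotype was. Without dsx GH replicate 3 the dsx median was -0.99, with 7 genes at an unadjusted p under 0.05, and among notAC libraries alone the CS median was -1.90.

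BomBc1 was the member with the smallest p in dsx, at 8.01, 6.05 and 6.34 CPM in grouped CS, 0.434, 1.63 and 0.457 in isolated CS, 1.80, 2.52 and 9.48 in grouped dsx and 1, 0.45 and 0.935 in isolated dsx. Its housings did not overlap in either genotype (-3.27 ± 0.56 in CS, -2.51 ± 0.55 in dsx, edgeR unadjusted p = 0.000127 in dsx). GNBP-like3, an immune-induced gene related to the recognition proteins, had a change of -3.15 ± 0.55 in CS and -1.74 ± 0.51 in dsx. Drs and Mtk, which encode the antifungal peptides drosomycin and metchnikowin, had changes of -4.20 ± 0.84 and -4.64 ± 0.79 in CS, both called, and of -2.03 ± 0.75 and -1.49 ± 0.66 in dsx. The dsx housings of both overlapped, with the highest value in GH replicate 3. Drs was at 0.631, 1.835 and 19.35 CPM in grouped dsx and 1.71, 1.125 and 2.44 in isolated dsx. Mtk was at 2.955, 4.11 and 13.58 CPM in grouped dsx and 1.456, 0.70 and 5.12 in isolated dsx. Their differences were 2.17 ± 1.11 and 3.15 ± 0.99 (edgeR adjusted p = 0.400 and 0.250). Of the 19 genes lower in CS that had an unadjusted p under 0.05 in the same direction in dsx, 9 were on the immune effector list. That list held 16 of all 103 genes lower in CS and 35 of the 11269 genes tested. Haemocyte marker sums were 679 to 899 CPM in grouped CS, 920 to 937 in isolated CS, 714 to 765 in grouped dsx and 656 to 691 in isolated dsx, and fat body marker sums 2220 to 2642, 2440 to 4058, 3548 to 3999 and 3676 to 4098; their part in the immune changes was not tested.

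**Figure D5:**
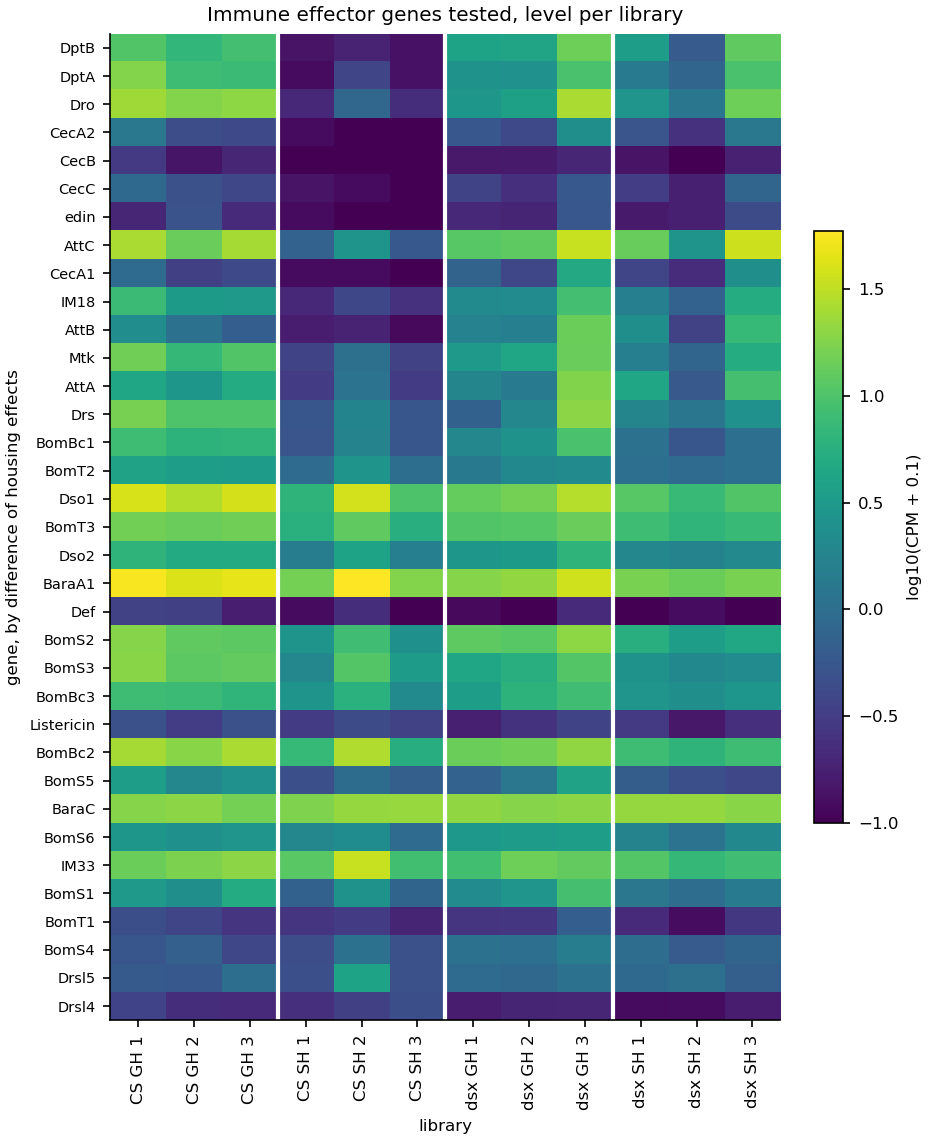
Level of the 35 immune effector genes tested, as log10(CPM + 0.1), in each of the 12 libraries, with genes ordered from the highest to the lowest difference of housing effects. The uppermost genes are near the floor in the 3 CS SH libraries and not in dsx SH, where replicate 3 is the highest, and most Bomanin genes are lower in SH than in GH in both genotypes.

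Among 32 immune recognition and signalling genes tested, 0 were called in the difference and 1 had a higher and 3 a lower difference at an edgeR unadjusted p under 0.05, against 7.63% and 5.73% of all genes. Leaving out 1 library at a time moved these counts between 1 and 5 and between 1 and 4. SPH93, a serine protease homologue, was at 5.64 to 16.6 CPM in grouped CS, 0.124 to 0.237 in isolated CS, 0.188 to 11.8 in grouped dsx and 0.688 to 5.02 in isolated dsx (difference 4.50 ± 1.28). Of the 4 Turandot stress genes tested 0 had an unadjusted p under 0.05 for the difference, and 4 of 4 had a negative change in each genotype without passing the threshold.

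Of the 8 core clock genes, 0 were called in the difference, and 1 had a higher and 2 a lower difference at an edgeR unadjusted p under 0.05, against 7.63% and 5.73% of all genes. Clk, which encodes the clock activator, was at 5.31 to 6.46 CPM in grouped CS, 9.78 to 12.2 in isolated CS, 7.89 to 9.54 in grouped dsx and 10.7 to 11.7 in isolated dsx, without overlap in either genotype (0.85 ± 0.15 in CS, 0.34 ± 0.15 in dsx, difference -0.50 ± 0.21). vri, whose product represses Clk, was at 48.1 to 78.2, 15.5 to 25.2, 29.9 to 39.1 and 17.5 to 22.4 CPM in the same order. tim, the partner of per, was at 136 to 201, 58.9 to 95.4, 245 to 276 and 166 to 190 CPM. Both changes were called in CS (-1.60 ± 0.30 for vri, -1.09 ± 0.23 for tim) and had the same sign in dsx (-0.75 ± 0.30 and -0.55 ± 0.23, edgeR unadjusted p = 0.0189 and 0.0238). Clk, vri and tim each overlap another annotated gene. The hours at which these brains were dissected are not given in the sources used here, and the part of circadian time in these values was not tested.

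Neuronal activity-regulated genes had mostly negative changes with isolation in both genotypes. Of 13 genes, 11 had a negative change in CS and 13 in dsx, with medians of -0.46 and -0.26, against 0.001 and -0.005 over all genes tested. In the difference 0 were called and the median was 0.08. The summed level was 1702 to 2352 CPM in grouped CS, 1171 to 1477 in isolated CS, 1775 to 2037 in grouped dsx and 1291 to 1361 in isolated dsx, with no overlap between housings in either genotype. sr, which encodes an EGR-family transcription factor, was at 81.9, 66.9 and 110 CPM in grouped CS, 49.2, 23.1 and 23.4 in isolated CS, 62.6, 87.2 and 92.4 in grouped dsx and 19.9, 24.9 and 24.1 in isolated dsx. The change was -1.41 ± 0.34 in CS, which was called, and -1.81 ± 0.35 in dsx (edgeR unadjusted p = 2.6e-05, adjusted p = 0.0977). CG14186 was at 322 to 430, 174 to 249, 305 to 350 and 184 to 217 CPM, a change of -0.82 ± 0.19 and -0.72 ± 0.18.

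In the lists of signalling and hormone genes, no member was called in the difference by the main edgeR test. At an unadjusted p under 0.05, the counts of higher and lower differences were 5 and 0 of 38 peptide receptors, 6 and 2 of 28 biogenic amine genes, 0 and 3 of 13 juvenile hormone genes, 4 and 0 of 14 ecdysone response genes and 3 and 3 of 20 sex determination and courtship genes, against 7.63% and 5.73% of all genes. Leaving out 1 library at a time moved the count of higher differences from 1 (without CS GH replicate 1 or dsx SH replicate 1) to 10 (without CS GH replicate 2) in the receptors, from 1 to 5 in the amine genes and from 1 to 5 in the ecdysone genes. Jheh1, a juvenile hormone epoxide hydrolase, was at 28.5 to 38.2 CPM in grouped CS, 39.2 to 66.5 in isolated CS, 25.6 to 28.1 in grouped dsx and 27.6 to 30.9 in isolated dsx, a called rise of 0.67 ± 0.11 in CS and 0.12 ± 0.11 in dsx. Octbeta1R, an octopamine receptor, was at 153 to 198, 95.2 to 158, 242 to 250 and 262 to 263 CPM in the same order (difference 0.57 ± 0.20, edgeR adjusted p = 0.28). SerT, the serotonin transporter, was at 14.8 to 22, 21.1 to 30.7, 28.5 to 28.9 and 22.6 to 27.5 CPM (difference -0.72 ± 0.24, adjusted p = 0.268). The median neuron marker sum was 6950 CPM in grouped CS, 6247 in isolated CS, 8908 in grouped dsx and 9332 in isolated dsx, and its part in the amine and receptor values was not tested.

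For the remaining lists, 0 members were called in the difference by edgeR, and several moved with single libraries. Cytochrome P450 genes had 0 higher and 11 lower differences of 72 at an unadjusted p under 0.05, with a median change of 0.25 in CS and 0.03 in dsx, and odorant-binding protein genes 0 and 3 of 23, against 7.63% and 5.73% of all genes. The P450 count of lower differences was 6 without CS SH replicate 2 and 16 without CS GH replicate 2, and its CS median ran from 0.11 to 0.37 over the libraries left out. The odorant-binding count ran from 1 to 8. Obp99b, on the latter list and on that of sex determination genes, was at 4.52, 9.69 and 12.1 CPM in grouped CS, 14.5, 89.5 and 13.8 in isolated CS, 1.28, 1.95 and 0.547 in grouped dsx and 1.06, 0.35 and 0.406 in isolated dsx; its high value was in CS SH replicate 2, the library with the highest photoreceptor sum. Photoreceptor markers had 1 higher and 7 lower differences of 12, and 0 lower without CS SH replicate 3. Heat shock and chaperone genes had 0 higher and 3 lower of 22, and 21 of 22 had a negative change in dsx with a median of -0.51. Without dsx GH replicate 1, where Hsc70-4 was at 1510 CPM against 954 to 1013 in the other grouped dsx libraries and Hsp70Bc at 58 against 6.86 to 7.68, that median was 0.07 and 8 of 22 were negative.

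Mitochondrially encoded genes had 4 higher and 0 lower differences of 13 at an edgeR unadjusted p under 0.05, with a median change of -0.997 in CS and 0.09 in dsx. Their share of gene counts dropped by 3.84 percentage points with isolation in CS and changed by 0.761 in dsx, a difference of 4.60 points (exact permutation of housing within genotype, 400 arrangements, two-sided p = 0.03, the smallest possible being 0.005). That permutation assumes no housing effect in either genotype and has no term for the AC batch. A change in CS alone can therefore give a small p, and equal changes in the 2 genotypes were not tested. Neuron markers had 2 higher and 0 lower of 6, glia markers 0 and 0 of 8, fat body markers 0 and 2 of 11, muscle markers 0 and 0 of 13, haemocyte markers 0 and 3 of 7, and tracheal and cuticle markers 0 and 1 of 7, against 7.63% and 5.73% of all genes. Leaving out 1 library at a time moved the count of higher differences from 0 to 5 in the mitochondrial genes (0 without CS GH replicate 1 or CS SH replicate 3) and from 0 to 4 in the neuron markers, and the count of lower differences from 0 to 8 in the muscle markers. Across all 22 lists, 0 of 436 tested genes were called in the difference by the main edgeR test, 19 by edgeR on the 12 libraries, 14 by DESeq2 and 2 by limma.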

How the data were processed

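Brain RNA of male flies was sequenced in 30 libraries of 10 groups as paired-end reads, and the 12 CS and dsx libraries are reported. The estimated counts were deposited by the authors for 24278 features and are not scaled, and 11.9% of values were not whole at a tolerance of 0. The tools named in the submitters' processing notes are STAR, DESeq2 and Salmon, with BDGP6 as the build and neither versions nor a strand setting. The second deposited table holds a normalized signal for 11335 features, whose method is not given in the sources used here. Features that are no genes took 0.854% to 1.25% of counts in these 12 libraries and were left out. Of 17895 genes, 17855 matched Ensembl release 115 (BDGP6.54), which gave symbols, positions and overlaps.

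Counts were rounded and fitted in R 4.3.3 with edgeR 4.0.16 over all 30 libraries, with 10 group terms plus 1 for dissection batch, filterByExpr (11269 genes kept), TMM and quasi-likelihood F tests. P values were adjusted by Benjamini-Hochberg over all genes tested, and calls used a threshold of 0.05. Alternatives used limma 3.58.1 on log2 of the deposited signal plus 1 and DESeq2 1.42.0. Replicates are separate pools. In the main fit p values rest on the spread between replicates as estimated over all 30 libraries, not on that of the CS and dsx pools alone.

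The members and the 22 gene lists were chosen with earlier results of these data known. Named genes were the called genes, or the 10 with the smallest p in each direction of the difference, the 12 higher and 12 lower genes of CS with the smallest p and no overlap between housings, dsx, w, the genes called in dsx and the 2 genes of each list with the smallest p; other list members were named after their values were seen. Of the lists, 2 symbols matched no gene. Sequences are not used here.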

Additional observations from a re-analysis of the deposited data

Results flagged for a closer look

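The housing effect on CG10513 differed between CS and dsx by a test of the difference itself. The difference was -1.53 on the log2 scale (edgeR adjusted p = 0.000176), with 3 of 3 isolated CS libraries above the grouped ones and overlapping housings in dsx.

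The share of gene counts from mitochondrially encoded genes changed by -3.84 percentage points with isolation in CS and by 0.761 in dsx. The difference was 4.60 percentage points, and the grouped CS libraries alone spanned 4.42% to 10.3%. The exact permutation within genotype (two-sided p = 0.03) assumes no housing effect in either genotype and has no term for the AC batch. A change in CS alone can give a small p, so whether the genotypes differed in their response was not tested. The part of dissection, library preparation or strain in the difference of 4.60 points was not tested.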

How the results depend on the processing

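The difference of the housing effects called 1 gene, CG10513, in edgeR over all 30 libraries, and that gene was called under each of the 24 alternatives. With the 12 CS and dsx libraries alone the counts were 283 genes in the difference, 1066 in CS and 5 in dsx, with 32.6% of CS genes of the same sign in dsx and 19 list genes in the difference. The DESeq2 Wald test gave 102, 626 and 26 genes, 40.9% and 14 list genes. Leaving out the AC term gave 46 genes in CS, 1 in dsx and 80.4%. The notAC libraries alone gave 4, 70 and 5 genes. The mitochondrial share as a covariate gave 2 genes in the difference, 90 in CS and 62.2%. No filter on low counts gave 2 in the difference, and limma on deposited values gave 12 in the difference, 3 in dsx and 2 list genes. The photoreceptor level as a covariate, chosen after seeing the data, gave 45 genes in CS, 3 in dsx and 77.8%. The cause of these shifts was not tested.

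A replicate block within genotype gave 7 genes in the difference, 176 in CS, 3 in dsx and 1 list gene, and a replicate block shared by all groups gave 1, 149 and 2. The numbers did not pair the samples: same-number correlations of deviations were 0.319, -0.224 and -0.164 in CS and -0.0405, 0.167 and 0.0756 in dsx.

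Leaving out 1 library at a time gave 1 to 15 genes in the difference, 52 to 436 in CS, 1 to 4 in dsx, 42.0% to 78.85% of the same sign and 0 to 4 list genes. The 15 came without CS GH replicate 3, the 52 without CS SH replicate 2 and the 436 without CS GH replicate 2 or CS SH replicate 1. The median standard error of the difference was 0.182 on the log2 scale.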
